A study of Mus musculus with 50 samples.

Results

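Chromatin occupancy of the glucocorticoid receptor (GR) in dexamethasone-treated 3T3 cells was mapped by CUT&RUN from 2 amounts of starting material, and the libraries made from 250000 nuclei (250K DEX) were set against those made from 50000 nuclei (50K DEX) to ask which sites and genes were already found with few nuclei and which needed more. The 4 libraries, 2 for each number of nuclei, were taken from the sample labels, out of 50 samples in the series, of which 39 had a peak list. A site was a merged region of overlapping peaks (at least 1 bp) called in both libraries of a group, which gave 2885 sites for 250K DEX and 510 sites for 50K DEX. 3T3 is an established line of mouse fibroblasts, labelled as wild type, and all cells were grown in medium without phenol red and with charcoal-stripped serum, which removes steroid hormones. DEX cells received 200 nM dexamethasone, a synthetic glucocorticoid, for 2 h. The background was measured in the same way in 2 libraries from 250000 nuclei (250K vehicle) and 2 libraries from 50000 nuclei (50K vehicle) of cells given ethanol vehicle for 2 h. The rest of the series profiled GR and the transcription factor NFIA in sorted nuclei of mouse visual cortex. From it, 7 GR libraries of astrocytes from P14 mice reared in normal light, with GR intact or deleted, entered a single closing observation. All 3T3 results rest on a single cell line.

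GR, encoded by Nr3c1, waits in the cytoplasm in a complex with heat shock chaperones and enters the nucleus once it binds a glucocorticoid. There it binds as a dimer to the glucocorticoid response element (GRE), an inverted repeat of the sequence AGAACA with a short spacer, and it also sits in chromatin held open by other factors, among them the Fos and Jun proteins of AP-1. In fibroblasts it is known for raising its own feedback inhibitor Fkbp5, the clock gene Per1 and the phosphatase gene Dusp1, and for damping inflammatory genes.

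The sequences under the summits give chosen examples of the motifs at the sites described here. They do not show how often a motif occurred: a full GRE lay at 7.60% of the sites in both 50K libraries. Windows of 100 bp centred on the summit were read from the plus strand of GRCm38.p6, the assembly named mm10 in the processing notes, and 3 patterns were searched on both strands. The full GRE holds both GRE arms with 3 free bases between them, the loose GRE is ACANNNTGT and lies inside every full GRE, and AP-1 is TGACTCA. In the 26474739 windows of 100 bp that tile the genome, 0.0561% held a full GRE, 3.21% a loose GRE and 1.52% the AP-1 pattern. The first windows belong to sites called in all 4 DEX libraries, and capitals mark the full GRE in Fkbp5, Per1, Mt2 and Mat2b, the loose GRE in Rad51b and the AP-1 pattern in Snx9.
Fkbp5, chr17:28420280-28420379: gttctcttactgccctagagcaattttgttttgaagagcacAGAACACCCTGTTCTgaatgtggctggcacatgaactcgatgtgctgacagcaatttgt
Per1, chr11:69097029-69097128: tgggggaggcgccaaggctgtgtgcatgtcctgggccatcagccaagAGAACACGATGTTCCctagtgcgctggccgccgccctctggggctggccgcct
Mt2, chr8:94171459-94171558: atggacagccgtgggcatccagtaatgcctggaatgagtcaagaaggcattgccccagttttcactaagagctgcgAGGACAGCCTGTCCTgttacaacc
Mat2b, chr11:40446999-40447098: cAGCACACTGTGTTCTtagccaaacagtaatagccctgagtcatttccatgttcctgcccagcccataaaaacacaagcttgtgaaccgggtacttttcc
Rad51b, chr12:79352521-79352620: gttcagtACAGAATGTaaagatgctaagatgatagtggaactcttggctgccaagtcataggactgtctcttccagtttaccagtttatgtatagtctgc
Snx9, chr17:5822617-5822716: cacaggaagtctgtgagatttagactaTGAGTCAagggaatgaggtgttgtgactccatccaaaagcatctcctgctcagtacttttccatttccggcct

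The next windows belong to 250K DEX sites with no peak in either 50K DEX library, with the full GRE in capitals in Glul and Bcl2l1, the loose GRE in Myh9 and the AP-1 pattern in Flrt2. They show that a well-formed GRE was not restricted to the sites found with few nuclei.
Glul, chr1:153901565-153901664: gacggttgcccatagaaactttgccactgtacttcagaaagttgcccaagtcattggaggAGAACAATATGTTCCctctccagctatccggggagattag
Bcl2l1, chr2:152820442-152820541: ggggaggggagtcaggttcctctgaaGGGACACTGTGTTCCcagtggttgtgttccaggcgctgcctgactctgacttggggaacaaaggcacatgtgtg
Myh9, chr15:77806740-77806839: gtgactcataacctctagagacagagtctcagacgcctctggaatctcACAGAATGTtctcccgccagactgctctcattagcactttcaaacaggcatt
Flrt2, chr12:95599446-95599545: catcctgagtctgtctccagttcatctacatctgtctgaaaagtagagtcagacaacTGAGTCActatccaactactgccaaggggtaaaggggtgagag

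More nuclei gave more GR peaks. The 250K DEX libraries held 5010 and 4654 peaks, against 720 and 1391 peaks in the 50K DEX libraries. The groups did not overlap, and the 50K libraries differed more from each other than the 250K libraries did. On the log2 scale the difference was 2.27, a 4.83-fold higher number with 250K nuclei, for which a two-sided exact permutation test gave p = 0.333, the smallest value that 2 libraries against 2 can give (adjusted p = 0.333 over 2 tests). Vehicle libraries were ordered in the same way, with 382 and 1035 peaks from 250K nuclei against 189 and 320 peaks from 50K nuclei, a log2 difference of 1.35. Over both treatments, with labels permuted within treatment, the mean log2 difference was 1.81 and the exact p was 0.0556, again the smallest possible, and the exact test of whether the difference itself changed between DEX and vehicle gave p = 0.611.

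The higher number of peaks did not go with a higher background. A peak list holds no read total, but the fold enrichment and −log10 p of each peak together fix the whole number of fragments piled up at its summit and the local background, and all peaks of the 4 DEX libraries could be solved in this way within 0.01 of the deposited −log10 p. The lowest local background of a library, which rises with its depth, was 0.317 and 0.367 fragments per position for 250K DEX against 0.430 and 0.507 for 50K DEX. Both 50K libraries therefore lay above both 250K libraries on this measure. The median pileup at a peak summit was 9 and 10 fragments for 250K DEX and 12 in each library for 50K DEX. The part of depth in the peak numbers was not tested beyond these values.

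**Figure D1:**
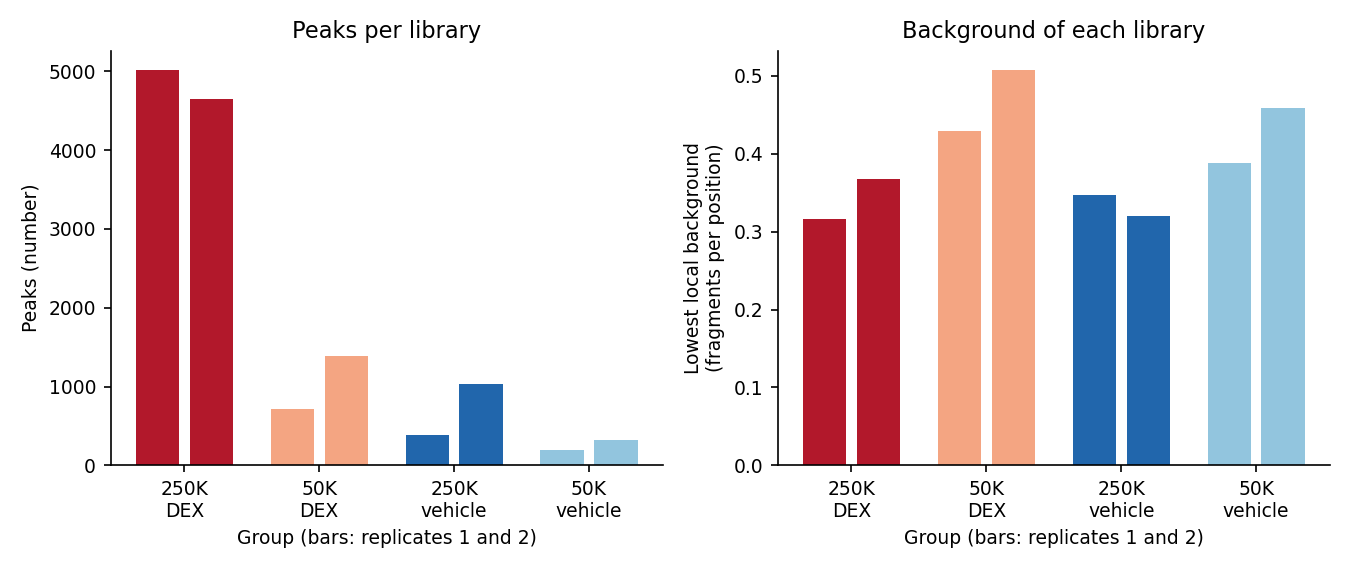
Number of peaks (left) and lowest local background in fragments per position (right) for each of the 8 GR libraries of 3T3 cells, 1 bar per library. The 250K DEX libraries have the most peaks, 5010 and 4654, and lower backgrounds than the 50K DEX libraries.

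Nearly every site found with few nuclei was found again with more, while most sites from 250K nuclei were not called with 50K, an asymmetry that was small at equal numbers of peaks. With each library cut to its 720 best-ranked peaks, 67.5% of the 50K sites were 250K sites and 62.5% of the 250K sites were 50K sites. With all peaks, of the 510 sites of 50K DEX, 489 (95.9%, 95% Wilson interval 93.8 to 97.3) were also sites of 250K DEX, 19 had a peak in a single 250K library and 2 had none. In the other direction 487 of 2885 sites of 250K DEX were sites of 50K DEX, a share of 16.9% (95% Wilson interval 15.6 to 18.3) that serves as the background for each group of sites described in the following paragraphs. A further 779 sites (27.0%), called partly found here, had a peak with 50K nuclei without being a 50K site, 630 of them in replicate 2 alone, 140 in replicate 1 alone and 9 in both replicates at places that did not overlap. The remaining 1619 sites (56.1%) had no peak in either 50K DEX library. The single 50K library from replicate 2 reached 39.0% of the 250K sites and that from replicate 1 reached 22.0%, so that the share of sites found depended on which 50K library was read.

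Agreement between libraries followed their numbers of peaks. Of the peaks of 50K DEX replicate 1, 93.8% overlapped a peak of 250K DEX replicate 1 and 92.4% one of 250K DEX replicate 2, but 71.7% one of 50K DEX replicate 2. For 50K DEX replicate 2 the shares were 87.8% and 86.8% with the 250K libraries and 36.7% with 50K DEX replicate 1. The 250K replicates shared 58.2% of the peaks of replicate 1 and 62.9% of those of replicate 2. When each library was cut to its 720 best-ranked peaks, the number in the smallest list, 57.4% of peaks overlapped between the 250K replicates and 53.2% to 53.5% between the 50K replicates, and between nuclei numbers the shares ran from 51.0% to 59.3%. At equal numbers of peaks the shares between nuclei numbers thus spanned those between replicates.

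Whether a site was found with 50K nuclei depended on its strength with 250K nuclei. The 250K sites were ranked by their mean −log10 p in the 250K libraries, a ranking that uses no 50K value, and split into 10 equal bins, of which bin 1 was the strongest. In bin 1, 234 of 289 sites (81.0%, 76.0 to 85.1) were 50K sites, in bin 2 36.1%, in bin 5 7.61% and in bin 10 1.39% (0.541 to 3.52). The fall was steep, and from bin 6 on each share was 4.51% or lower. In bin 1 83.7% of the sites had a peak in 50K DEX replicate 1 and 94.5% in replicate 2, and only 3.11% had a peak in neither. In bin 10 3.47% and 10.8% had one, and 87.2% had none. The median fold enrichment in the 250K libraries was 12.9 in bin 1 and 5.03 in bin 10, with median pileups of 22.5 and 8 fragments. Of the 100 strongest 250K sites 95 were 50K sites and none lacked a 50K peak, whereas of the 1000 weakest 12 were 50K sites.

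**Figure D2:**
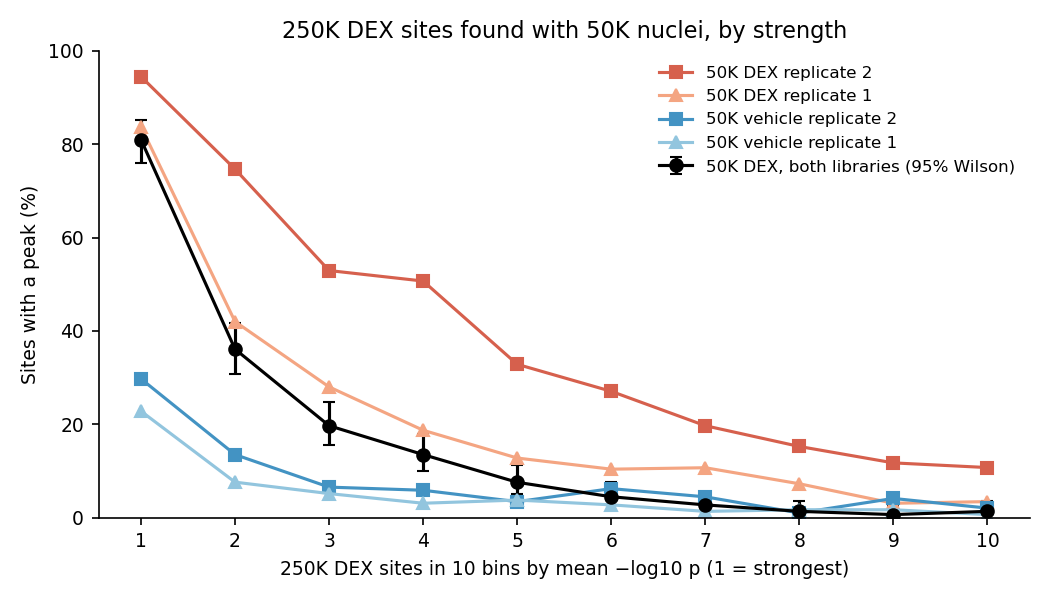
Percentage of 250K DEX sites with a peak in 50K libraries (vertical axis), by bin of mean −log10 p in the 250K DEX libraries (horizontal axis, 1 is strongest, 288 or 289 sites each). Black points with 95% Wilson intervals are sites of 50K DEX, which range from 81.0% to 1.39%, and coloured lines are single 50K DEX and 50K vehicle libraries.

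At the 487 sites found with both numbers of nuclei, the signal stood higher over the background with 250K nuclei. The median fold enrichment at these sites was 11.01 and 10.4 in the 250K DEX libraries against 7.18 and 7.63 in the 50K DEX libraries. The median pileup divided by the lowest local background of the library was 56.8 and 51.7 for 250K DEX against 30.3 and 29.6 for 50K DEX. The groups did not overlap, the ratio was 1.81-fold higher with 250K nuclei (two-sided exact permutation p = 0.333, the smallest possible), and 485 of the 487 sites (99.6%) had the higher mean ratio with 250K nuclei. The 250K sites were also wider, with a median of 291 bp against 192 bp, and 450 of 487 (92.4%) were the wider of the pair. Summits, however, lay as close between nuclei numbers as between replicates. The median distance between summits was 24 bp between the 250K replicates, 26 bp between the 50K replicates and 21 to 27 bp between nuclei numbers. Depending on the pair of libraries, the summits lay within 50 bp of each other at 65.5% to 71.9% of the sites.

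Part of the 250K sites carried a peak without hormone. A peak in at least 1 vehicle library was present at 637 of 2885 sites (22.1%), and in all 4 vehicle libraries at 86. Of the sites with a vehicle peak 27.8% were 50K DEX sites, and of the 2248 sites without one 13.8%. Of the 86 sites with a peak in all 4 vehicle libraries, 75.6% were 50K DEX sites. In single libraries, 22.0% and 39.0% of the 250K DEX sites had a peak in 50K DEX, against 5.10% and 7.73% in 50K vehicle. The DEX and vehicle libraries from 50K nuclei did not overlap, with a mean difference of 24.1 percentage points (exact permutation p = 0.333, the smallest possible). The 50K DEX libraries held 720 and 1391 peaks against 189 and 320 in 50K vehicle. The sites were also defined in DEX libraries, so this difference follows in part from the counting. In the strongest of the 10 bins, 22.8% and 29.8% of sites had a peak in the 50K vehicle libraries, so vehicle peaks were concentrated among the sites that were easiest to find.

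The GRE was most frequent at sites found with few nuclei. A full GRE lay at the summit of 37 of 487 sites in both 50K libraries (7.60%), 29 of 779 partly found sites (3.72%) and 33 of 1619 sites in none (2.04%), against 0.308%, 0.257% and 0.185% in windows 1 kb to either side. For the loose GRE the shares were 22.4%, 13.2% and 10.0%, against 3.02% to 3.24% in those flanks. Among the sites without any vehicle peak the contrast was wider, at 11.3% (35 of 310, 8.23 to 15.3), 4.84% (29 of 599, 3.39 to 6.87) and 2.46% (33 of 1339, 1.76 to 3.44). Among the sites with a vehicle peak 2 of 177, 0 of 180 and 0 of 280 held a full GRE. In vehicle libraries the full GRE lay under 0 of 382 and 0 of 1035 peaks from 250K nuclei and under 0 of 189 and 1 of 320 peaks from 50K nuclei, where a count of 0 allows shares of up to 0.785%, 0.290% and 1.59%.

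GRE share and strength moved together. Of the 10 strength bins, bin 1 held a full GRE at 8.30% of its sites and bin 10 at 2.08%. In bin 1, 20 of 24 sites with a full GRE were 50K sites (83.3%, 64.1 to 93.3), against 214 of 265 without one (80.8%, 75.6 to 85.0). The shares were 5 of 11 (45.5%, 21.3 to 72.0) against 35.7% (30.3 to 41.5) in bin 2 and 6 of 14 (42.9%, 21.4 to 67.4) against 18.5% (14.4 to 23.6) in bin 3. The intervals of sites with and without a full GRE overlapped in each of the 10 bins. With 3 to 24 full GRE sites per bin, such an overlap cannot decide whether the shares differed at equal strength. The share was higher with a full GRE in bins 1 to 6 and in bin 8. It was lower in bins 7, 9 and 10, with 0 of 3, 0 of 4 and 0 of 6 full GRE sites found. In the strongest of 3 wider bins the share found was 59.6% (46.1 to 71.8) with a full GRE against 41.4% (38.3 to 44.7) without. For the loose GRE it was 55.6% (48.1 to 62.9) against 39.6% (36.3 to 43.0). The intervals overlapped in the weaker of these wider bins, and strength varies more within a wider bin. Sites are not replicates, and the Wilson intervals cover counting error only.

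AP-1 ran the other way among sites without a vehicle peak. Over all sites the AP-1 pattern lay at 19.9% of the sites in both 50K libraries, 21.4% of the partly found sites and 24.3% of those in none, against 2.04% to 2.25% in the flanks. Without a vehicle peak the shares were 16.5% (12.7 to 20.98), 18.7% (15.8 to 22.0) and 23.5% (21.3 to 25.9), and with a vehicle peak 25.99%, 30.6% and 27.9%, with intervals that overlapped. The pattern CATTCC of TEAD factors lay at 13.3%, 14.1% and 13.0% of the sites of the 3 classes and the pattern TGTGGT of RUNX factors at 10.1%, 10.4% and 10.2%, with overlapping intervals between classes.

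**Figure D3:**
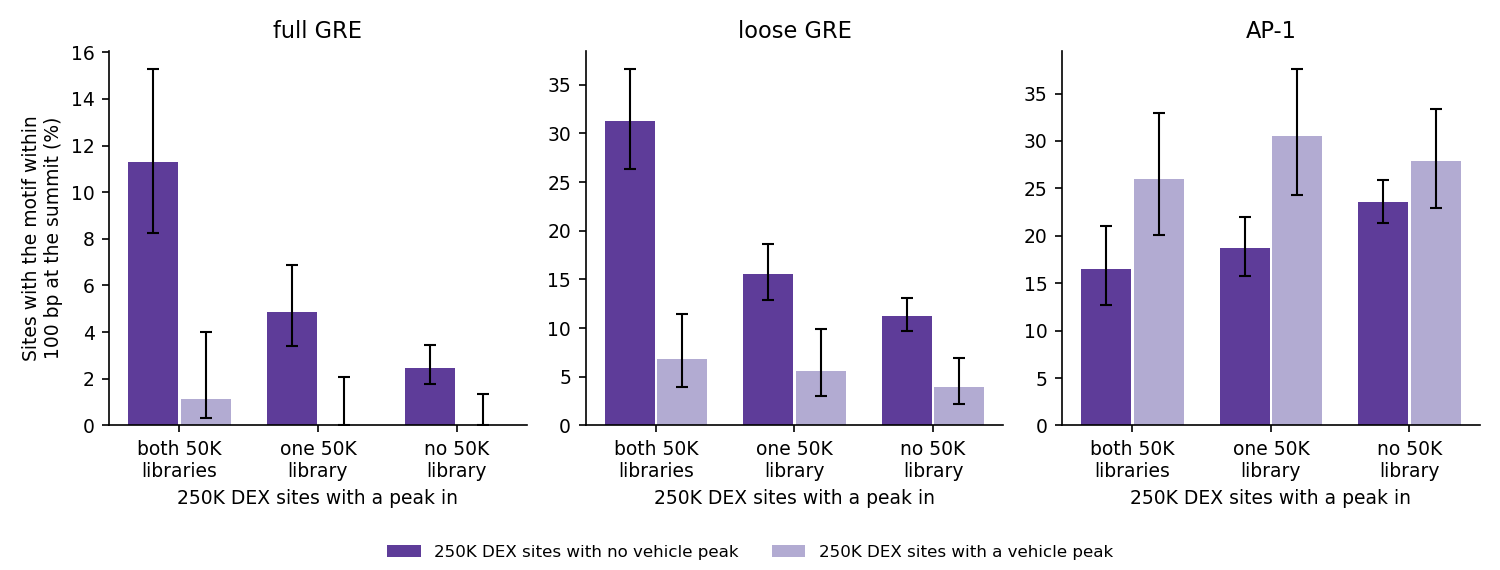
Percentage of 250K DEX sites (vertical axes) whose 100 bp at the summit held a full GRE, a loose GRE or the AP-1 pattern, by whether the site was found in both 50K DEX libraries, partly found (1) or without a peak in either (horizontal axes), for sites with no vehicle peak (dark) and with a vehicle peak (light). Error bars are 95% Wilson intervals, and the full GRE falls from 11.3% to 4.84% and 2.46% where no vehicle peak was present.

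Counted over all peaks of a library, the full GRE share was 2.46% and 2.66% with 250K nuclei against 5.56% and 4.46% with 50K nuclei. Both 250K libraries lay below both 50K libraries, and the mean difference was -2.45 percentage points, with an exact permutation p = 0.333, the smallest possible, and an adjusted p = 0.481 over 13 motifs. The difference almost vanished at equal numbers of peaks. Among the 720 best-ranked peaks of each library the full GRE share was 6.11% and 5.00% with 250K nuclei against 5.56% and 6.11% with 50K nuclei, a difference of -0.28 percentage points with overlapping groups. The loose GRE lay under 10.4% and 10.6% of peaks with 250K nuclei and 17.1% and 15.03% with 50K nuclei, and AP-1 under 22.4% and 22.6% with 250K nuclei and 18.9% and 21.4% with 50K nuclei, each with adjusted exact p = 0.481.

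The 3 classes differed little in introns and intergenic sequence and more at promoters. Within 500 bp of an annotated transcription start of any gene, here called promoter, lay 8.21% (6.09 to 10.99) of the sites in both 50K libraries, 6.55% (5.01 to 8.51) of the partly found sites and 10.1% (8.70 to 11.6) of those in none, so that the intervals of partly found sites and of sites in none did not overlap. Introns held 47.4%, 48.9% and 45.9%, and intergenic sequence 39.8%, 41.1% and 40.2%. Median distances to the nearest protein-coding start were 22442, 22832 and 23761 bp. Over single libraries, promoters held 9.66% and 9.24% of peaks with 250K nuclei against 7.92% and 7.40% with 50K nuclei. The groups did not overlap and differed by 1.79 percentage points (exact permutation p = 0.333, adjusted p = 0.333 over 2 tests), and at 720 best-ranked peaks each the difference was 1.67 percentage points.

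The 12 best-ranked sites called in all 4 DEX libraries fell into 2 kinds. Ranks here are means of the within-library percentile of −log10 p. At 10 of the 12 a peak was also called in 3 or 4 vehicle libraries, and these included an AP-1 site 18472 bp upstream of Snx9, which encodes a sorting nexin of endocytosis. Its fold enrichment was 34.6 and 35.1 with 250K DEX against 25.5 and 28.5 with 50K DEX, and 18.2, 22.0, 18.2 and 13.8 in the vehicle libraries. All 4 DEX values lay above all vehicle values at that site. The site at the promoter of Stip1, which encodes a co-chaperone linking Hsp70 and Hsp90 in the receptor's own chaperone complex, had 15.3 and 13.3 with 250K DEX against 10.1 and 8.53 with 50K DEX, and 13.996, 13.1, 12.7 and 11.5 in the vehicle libraries. There the 50K DEX values were the lowest, and the 250K DEX values lay at the upper end of the vehicle values. The site near Coro2b, a coronin of the actin cytoskeleton, had 19.5 and 19.6 with 250K DEX, 12.2 and 12.9 with 50K DEX and 20.9 to 30.4 in the vehicle libraries, which lay above all DEX values.

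Further sites of this kind lay near Tmem106b, a lysosomal membrane protein, Uqcc2, an assembly factor of the respiratory chain, Map10, a microtubule protein, Itga10, an integrin chain, Mat2b, a subunit of the enzyme that makes S-adenosylmethionine, and Ets2, a transcription factor. Their fold enrichment ran from 12.7 to 35.7 with 250K DEX and from 11.96 to 24.8 with 50K DEX. Sites are named by the nearest protein-coding start, which was 238029 bp away for Mat2b and 96976 bp away for Ets2. Only the sites of Fkbp5 and Rad51b among the 12 had no vehicle peak. Fkbp5 encodes a chaperone that holds GR in a state of low hormone affinity, and its intronic site with the perfect GRE shown above had 25.3 and 21.3 with 250K DEX against 15.9 and 14.9 with 50K DEX. Rad51b encodes a protein of DNA repair, and its intronic site with a loose GRE had 15.8 and 17.4 with 250K DEX against 10.8 and 12.3 with 50K DEX. At both sites the 250K values lay above the 50K values.

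The 12 best-ranked 250K sites with no peak in either 50K library had lower values. The site 33 bp upstream of a start of Zfp365, which encodes a zinc finger protein, led them with a fold enrichment of 14.4 and 13.6 in the 250K libraries and no vehicle peak. The intronic site of Bcl2l1, the gene of the survival protein Bcl-xL, had 10.3 and 10.2 at the full GRE shown above. An exonic site of Myh9, the heavy chain of non-muscle myosin, had 12.05 and 16.1 at a loose GRE. Over the 12 sites the fold enrichment ran from 9.27 to 16.1, below both 250K values of the Fkbp5 site. The pileups were 13 to 25 fragments, above the minimum of 6 fragments at any peak of the 50K DEX libraries.

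The rest of these sites lay near Igsf10, Mrps23 (a mitochondrial ribosomal protein), Slc38a4 (an amino acid transporter), Sipa1l1, Flrt2 (a cell adhesion protein), Camk2d (a calcium-dependent kinase), Col18a1 (collagen XVIII), 4930432M17Rik and Erp27 (a protein of the endoplasmic reticulum). The nearest start was 63641 bp away for Camk2d, 68291 bp for 4930432M17Rik and 92612 bp for Flrt2. Of the 12, 5 had a peak in 1 or 2 vehicle libraries, so a site without a 50K DEX peak could still be called in vehicle cells. One such site at the start of Slc38a4 had 12.5 and 12.4 with 250K DEX, and 6.50 and 9.15 in 250K vehicle replicate 2 and 50K vehicle replicate 1. Conversely, only 2 sites of 50K DEX had no peak with 250K nuclei. They lay in intergenic sequence 60963 bp from Asb13 and 31229 bp from Syn2, with fold enrichments of 5.61 and 5.63 near Asb13 and of 5.61 and 5.17 near Syn2, at 7 or 8 fragments each. The site near Syn2 had a peak of 5.39 in 250K vehicle replicate 2.

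A gene was counted as having a site when one lay within 50 kb of a start of the gene. Of 21911 protein-coding genes, 2622 (12%) had a 250K DEX site and 655 (2.99%) a 50K DEX site. Of the 2622 genes, 640 (24.4%) also had a 50K DEX site, while 15 genes had a 50K site alone. By number of 250K sites per gene, a 50K site was present at 303 of 1822 genes with a single 250K site (16.6%), 158 of 503 with 2 (31.4%), 97 of 179 with 3 (54.2%), 60 of 94 with 4 or 5 (63.8%) and 22 of 24 with 6 or more (91.7%). A gene with more 250K sites has more chances to hold a 50K site, so the order of these shares follows in part from the counting. Neighbouring genes can share a site, so these counts are not of independent genes. A single library gave more genes, with 3976 and 4119 genes near a peak when either 250K library was left out, and 1475 when 50K DEX replicate 1 was.

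Canonical glucocorticoid targets were marked at most of their members with 250K nuclei. Of 30 such genes, 22 (73.3%) had a 250K DEX site within 50 kb, beside 12% of all protein-coding genes, and 9 (30.0%) had a 50K DEX site, beside 2.99% of all. The 9 genes found with few nuclei were Fkbp5, Per1, Dusp1, Mt1, Mt2, Nfkbia, Pdk4, Ddit4 and Hif3a, 9 of the 22 genes, where 24.4% of all genes with a 250K site had a 50K site. The 13 with a 250K site alone were Tsc22d3, Per2, Klf9, Sgk1, Errfi1, Cebpd, Glul, Mertk, Fam107a, Anxa1, Cdkn1a, Rgs2 and Tgm2. The other 8, Klf15, Zbtb16, Cebpb, Lcn2, Angptl4, Bcl6, Cdkn1c and Tat, had no site with either number. This list and the lists below were chosen with earlier results of these data known, and their shares were not tested.

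Among the targets found with few nuclei, the clock repressor Per1 had a site 1715 bp from a start, at the full GRE shown above, with fold enrichments of 19.2 and 20.3 with 250K DEX against 11.1 and 11.6 with 50K DEX. Mt1 and Mt2 encode metallothioneins, which bind zinc and copper, and share a site with a full GRE 808 bp from Mt2 and 7226 bp from Mt1. Its values were 11.99 and 13.3 with 250K DEX against 7.97 and 7.58 with 50K DEX. A second site, at the start of Mt1 and also with a full GRE, had 8.73 and 6.27 with 250K DEX against 5.46 and 4.33 with 50K DEX, and neither site had a vehicle peak. The values with 250K nuclei lay above those with 50K nuclei at each of these 3 sites.

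Hif3a encodes a hypoxia-inducible factor, and its site had 25.0 and 17.6 with 250K DEX against 12.5 and 15.2 with 50K DEX. Nfkbia encodes the inhibitor that keeps NF-kB in the cytoplasm, and its site 29534 bp from a start had 12.3 and 9.61 with 250K DEX against 6.40 and 5.17 with 50K DEX. No vehicle peak was present at either. At Dusp1, the phosphatase that switches off MAP kinases, the best site had 22.2 and 26.4 with 250K DEX against 16.2 and 9.93 with 50K DEX, and it had a peak in 3 vehicle libraries. A second Dusp1 site lay 3217 bp from a start and was called in all 4 vehicle libraries. It had 20.7 and 15.5 with 250K DEX against 8.54 and 10.5 with 50K DEX. Ddit4, an inhibitor of mTORC1, had 19.8 and 17.6 with 250K DEX against 10.5 and 18.1 with 50K DEX at a site called in all 4 vehicle libraries. The protein-coding start nearest to that site was one of Dnajb12, 29846 bp from its 50K region. The groups overlapped at Ddit4 and at Pdk4, a kinase that inhibits pyruvate dehydrogenase, which had 8.96 and 8.37 with 250K DEX against 5.17 and 8.95 with 50K DEX. The best sites of these genes lay 30357 bp from a start of Dusp1, 42116 bp from Ddit4 and 40530 bp from Pdk4.

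The targets without a 50K site had best-site fold enrichments of 5.14 to 12.9 with 250K nuclei, a range that overlapped that of the targets with one. Glul, the gene of glutamine synthetase, had 5.997 and 8.33 with 250K DEX at its promoter GRE, and Tsc22d3, which encodes the anti-inflammatory protein GILZ, had 8.35 and 7.31 at a site 22342 bp from a start. Neither had a peak with 50K DEX or with vehicle. Klf9, a zinc finger repressor, had 7.94 and 11.9, and the annexin gene Anxa1 had 8.33 and 8.88, with no peak in 50K DEX. Per2, a partner of Per1 in the clock, had 5.46 and 8.88 and was absent from both 50K DEX libraries as well. For 4 of the 13 the best site was called in 50K DEX replicate 2 alone, namely Sgk1 (10.4 and 12.9 with 250K DEX against 9.76), Cebpd (12.5 and 11.3 against 7.63), Cdkn1a (6.13 and 9.99 against 6.44) and Errfi1 (5.69 and 5.14 against 7.27). Sgk1 encodes a kinase of sodium balance and carries, 91 bp from a start, a further 250K site with a full GRE that had no 50K peak. Beyond 50 kb, a site 96160 bp from Sgk1 was found with both numbers of nuclei. It had 19.0 and 19.5 with 250K DEX against 10.6 and 12.9 with 50K DEX. Read from 50K DEX replicate 2 alone, 15 of the 30 targets had a peak within 50 kb, and from replicate 1 alone 9 had one.

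**Figure D4:**
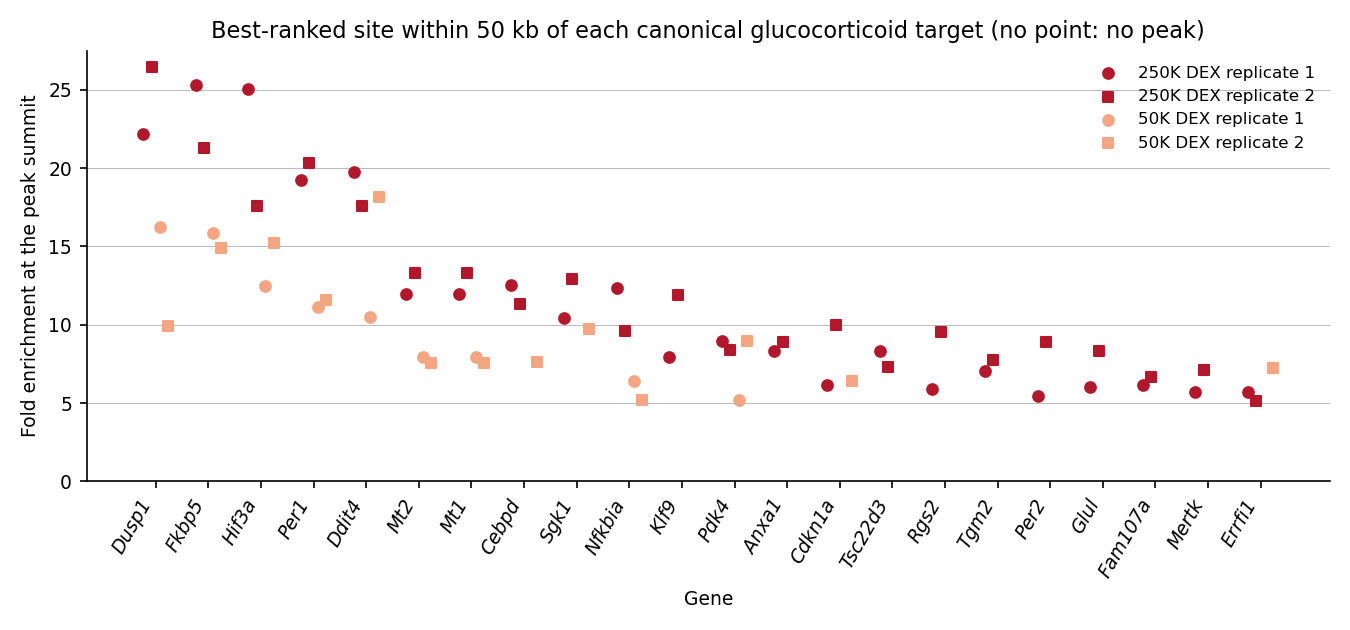
Fold enrichment at the best-ranked site within 50 kb of each of the 22 canonical glucocorticoid targets with a 250K DEX site (vertical axis), 1 point per DEX library, genes ordered by their mean with 250K nuclei. A missing point means no peak at the site, and Fkbp5 has 25.3 and 21.3 with 250K DEX and 15.9 and 14.9 with 50K DEX.

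Fkbp5 held more 250K sites within 50 kb than any other protein-coding gene, with 20, of which 6 were 50K sites, 2 had a peak in a single 50K library and 12 had none. The libraries held 23 and 20 peaks there with 250K DEX against 7 and 7 with 50K DEX, and 0 in each vehicle library. Within this gene, too, the sites found with few nuclei were stronger than those without a 50K peak. In 250K DEX replicate 1 the 6 found had fold enrichments of 9.29 to 25.3 and the 12 without a 50K peak 4.12 to 8.59, and in replicate 2 these sets did not overlap either. The 2 partly found sites had 8.97 and 7.48 in replicate 1 and 13.7 and 5.87 in replicate 2. There, 13.7 lay above all but the strongest of the 6. In the 50K DEX libraries the 6 had 4.60 to 15.9. The full GRE lay at a single one of the 20 sites, the strongest. Sites at 2 annotated starts of the gene, with 6.01 and 5.79 at the one and 5.45 and 5.87 at the other, had no 50K peak. At Dusp1, 11 sites of 250K DEX lay within 50 kb and 2 of these were 50K sites, while 6 more had a peak in a single 50K library.

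Of the other gene lists, those of fibroblasts had the highest shares with a site from 250K nuclei. Among 22 fibroblast and matrix genes 12 (54.5%) had a 250K site and 2 (9.09%) a 50K site, beside 12% and 2.99% of all protein-coding genes. Those 2 were Lox, the enzyme that crosslinks collagen, with 6 and 2 sites, and Timp3, an inhibitor of matrix proteases, with 4 and 2 sites. Among the 10 without a 50K site were the collagen genes Col3a1, Col5a1 and Col5a2, the matrix genes Sparc, Postn, Tnc and Fbn1, the protease gene Mmp2, the surface marker Thy1 and the collagen receptor Ddr2. The best site of Thy1 held a full GRE and had 7.59 and 10.2 with 250K DEX. Col1a1, Col1a2, Fn1, Pdgfra and Pdgfrb, which mark fibroblasts by expression, had no site with either number, and since a peak does not measure expression, the labelled cell type could not be checked by its markers.

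Among 22 cytoskeleton and adhesion genes 11 (50.0%) had a 250K site and 4 (18.2%) a 50K site. At Zyx and Itga5, which encode a focal adhesion protein and a fibronectin receptor chain, a site was shared by both nuclei numbers, whereas the 50K sites of Actn4 and Vim lay apart from their 250K sites. Tpm1, Vcl, Itgb1, Cd44, S100a4, S100a6 and Lpp had 250K sites alone, and S100a4 and S100a6 are neighbours that share theirs. Of 20 targets of YAP, TEAD and TGF-beta, 4 had a 250K site, and of these the secreted matrix protein gene Ccn1 alone had a 50K site, with 12.5 and 10.5 with 250K DEX against 6.43 and 8.05 with 50K DEX. Ccn2 and Tead1 were among those with 250K sites alone.

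Clock genes were likewise found with both numbers of nuclei. Of 19 clock genes 8 (42.1%) had a 250K site and 4 (21.1%) a 50K site, at Per1, Dbp, Tef and Nfil3. Dbp, Tef and Nfil3 encode bZIP factors that act at the same output elements of the clock. Tef had 8.33 and 11.1 with 250K DEX against 5.18 and 5.76 with 50K DEX, and Nfil3 had 11.05 and 9.89 against 6.95 and 8.27 at a site with a full GRE, and neither had a vehicle peak. Dbp had 10.2 and 11.6 against 7.48 and 9.19 at a site with a peak in 3 vehicle libraries. Per2, Bmal1, Nr1d1 and Bhlhe40 had 250K sites alone.

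Among 22 NF-kB and inflammatory genes 7 (31.8%) had a 250K site, and 3 of these, Nfkb1, Nfkbia and Il1rl1, had a 50K site. Il1rl1, the receptor of interleukin 33, had 12.9 and 11.7 with 250K DEX against 10.5 and 9.61 with 50K DEX, at a site with a peak in 1 vehicle library. The cytokine genes Cxcl1, Csf1 and Lif and the inhibitor gene Nfkbib had 250K sites alone. Of 20 metabolic and adipogenic genes 6 (30.0%) had a 250K site and the glucose transporter gene Slc2a1 alone had a 50K site, and Pparg, Lipe, Foxo3 and Pfkfb3 were among those with 250K sites alone. Of 22 genes of the receptor, its chaperones and its coregulators 5 (22.7%) had a 250K site, and the chaperone genes Hspa8 and Stip1 had a 50K site as well. Hspa8 had 18.4 and 13.4 with 250K DEX against 10.1 and 16.5 with 50K DEX and no vehicle peak, while Hsp90aa1 and Hspa4 were among those with 250K sites alone and Nr3c1 itself had none.

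The lists of AP-1, astrocyte, neuron and housekeeping genes stayed at or below the background of all protein-coding genes with 250K nuclei. Of 19 AP-1 and immediate early genes 2 (10.5%) had a 250K site, Jun with 6 sites and Junb with 2, and none had a 50K site. The best site near Jun, 42630 bp from its start, had 7.91 and 8.57 with 250K DEX against 5.76 in 50K DEX replicate 2 alone. Of 20 astrocyte genes Slc1a3 had a site with both nuclei numbers and Sox9 with 250K alone, and of 20 neuron genes Camk2a and Dlx2 had a 250K site alone. None of 20 housekeeping genes had a site.

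**Figure D5:**
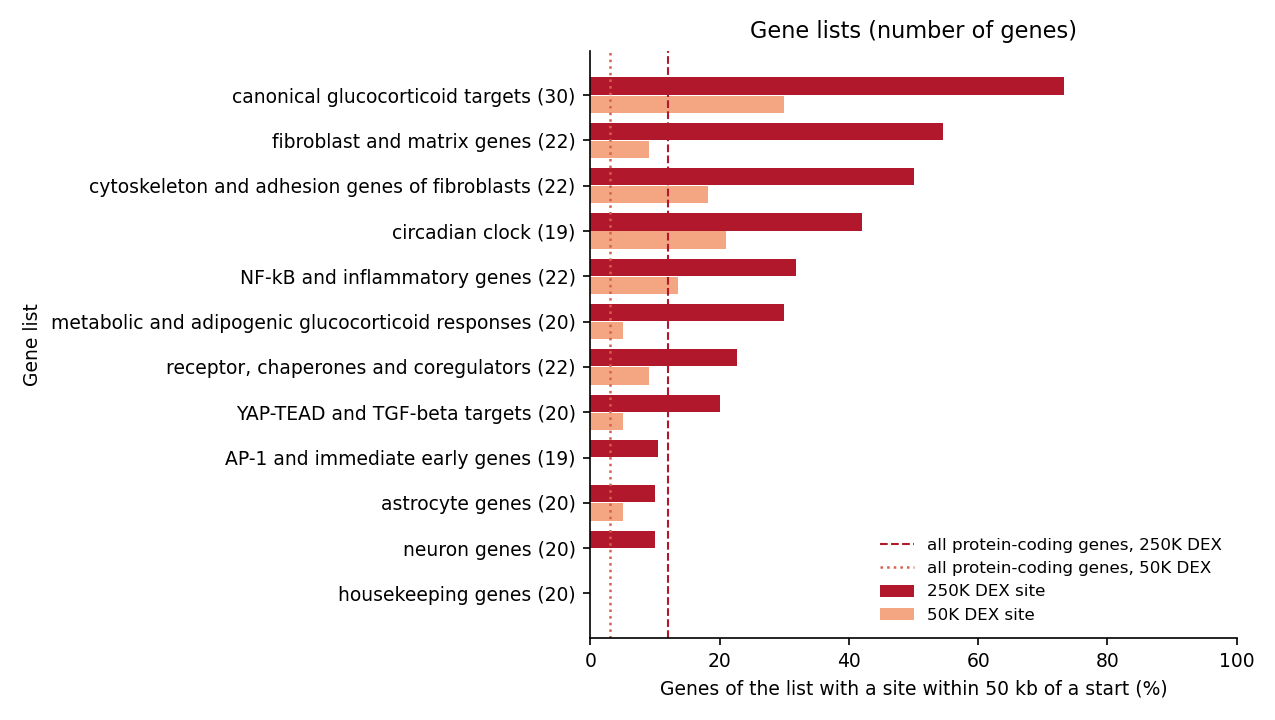
Percentage of the genes of each list with a site within 50 kb of a start (horizontal axis), for 250K DEX (upper bar of each pair) and 50K DEX (lower bar), with the shares of all protein-coding genes as lines at 12% and 2.99%. Canonical glucocorticoid targets lead with 73.3% and 30.0%, and housekeeping genes have none.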

How the data were processed

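GR CUT&RUN, in which an antibody directs a nuclease to release DNA around the bound protein, was analysed in 8 libraries of 3T3 cells, with 7 GR libraries of cortical astrocytes for a single closing observation. Before deposit, the authors removed adapters by cutadapt, used Bowtie2 for alignment (mm10) and Picard against duplicates, filtered by SAMtools, retained short fragments by deepTools, and ran MACS2 on every library by itself with IgG as control, per the labels and methods. The IgG library behind each 3T3 list was not given in the sources used here, and the labels list 3T3 IgG from 250K nuclei only. The highest q in a 3T3 list was 0.0498.

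The deposited columns used were the fold enrichment over background, a ratio from the authors' peak caller, the −log10 p and −log10 q, and the summit offset in bp. P-values ranked peaks within a library only. Read totals are not in these files, so depth was read from the implied background. Sites, overlaps, distances to GENCODE M21 starts and motifs in GRCm38.p6 were computed with Python 3.11.15, numpy 2.4.6, pandas 2.3.3, SciPy 1.17.1 and statsmodels 0.14.6, and the steps were tested on simulated data. Tests were two-sided exact permutation tests over libraries with Benjamini-Hochberg adjustment and a threshold of 0.05. The labels number the replicates without naming separate cultures, so a p-value reflects only how these samples spread, which may be technical. The 95% Wilson intervals hold counting error alone.

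Named sites were the 12 best-ranked called in all 4 DEX libraries, the 12 best-ranked 250K sites with no 50K peak and the 50K sites with no 250K peak, each with its nearest protein-coding start. Named genes were all canonical targets and, of the other 11 lists, members that differed between nuclei numbers or had the best-ranked sites. All 256 list entries matched a gene. A few named genes and sites are not reported here. The members and lists were chosen with earlier results of these data known. Alternatives were other thresholds, overlaps, distances, windows, equal numbers of peaks, a replicate block and leaving out each library.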

Additional observations from a re-analysis of the deposited data

How the results depend on the processing

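The direction of every difference between groups was kept under each alternative run. The GRE difference, however, shrank to -0.28 percentage points at 720 best-ranked peaks per library, with overlapping groups. Shares and counts have no direction, and their values follow. The share of 250K DEX sites found with 50K DEX, 16.9%, was 13.8% with a reciprocal overlap of 50%, 15.5% with summits within 100 bp, 43.9% when a peak in a single 50K library sufficed, 62.5% at 720 best-ranked peaks per library and 13.8% over sites with no vehicle peak, an alternative chosen after seeing the data, and it ran from 10.1% to 39.0% when 1 library was left out. The share of 50K DEX sites found with 250K DEX, 95.9%, was 78.2%, 87.5%, 99.6% and 67.5% under the first 4 of these and ran from 82.5% to 98.4%. The share found in the strongest of 10 bins, 81.0%, was 70.2% with reciprocal overlap, 96.9% with a single 50K library and 68.4% over sites with no vehicle peak, and the 93.8% of 50K DEX replicate 1 peaks in 250K DEX replicate 1 fell to 55.6% with reciprocal overlap. Genes with a 250K site, 2622 within 50 kb, numbered 836 within 10 kb and 4381 within 100 kb, and 2622 to 4119 with 1 library left out, and genes with a 50K site, 655, numbered 171, 1200 and 655 to 1475. The share of genes with a 250K site that had a 50K site, 24.4%, was 20.0% within 10 kb, 26.9% within 100 kb, 22.4% with q of 0.01 or lower and 15.8% to 48.4% with 1 library left out. The lead of 50K DEX over 50K vehicle at 250K sites, 24.1 percentage points, was 13.3 with reciprocal overlap and 14.7 to 32.6 with 1 library left out. The log2 difference in peak number ran from 1.80 without 50K DEX replicate 1 to 2.75 without 50K DEX replicate 2, the promoter difference from 1.53 to 2.05 and the GRE difference from -3.00 to -1.90 percentage points. Canonical targets with a 250K site, 22, numbered 14 within 10 kb and 25 within 100 kb. Those with a 50K site, 9, numbered 6 within 10 kb and 15 within 100 kb. A group left with 1 library was a value with no test.

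With a replicate block, the log2 difference in peak number stayed at 2.27 with an exact sign-flip p = 0.500, the smallest 2 pairs allow, and over both treatments it stayed at 1.81 with an exact p = 0.125. The numbers do not pair the samples, since replicate 1 had the more peaks in 250K DEX and the fewer in the other groups, and crossed numbers gave the same exact p = 0.500. The block changed no call. With 2 libraries a group, no test between nuclei numbers could pass the threshold, and why a site lacked a 50K peak was not tested.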

Other observations

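A pattern that recurred at the best-ranked summits was noticed after reading their sequences and then counted in all libraries, as a description with no test. GGAAANTT, searched on both strands, lay in 1.98% of the 100 bp windows of the genome. It lay at the summit of 3.89% and 4.28% of peaks in 250K DEX and of 5.97% and 5.90% in 50K DEX, against 14.9% and 8.60% in 250K vehicle and 19.0% and 14.1% in 50K vehicle. All vehicle libraries thus lay above all DEX libraries, and flanks 1 kb away held 1.35% to 2.03%. Of the 250K DEX sites with a peak in all 4 vehicle libraries 22 of 86 (25.6%) held it, beside 66 of 2248 (2.94%) of those with no vehicle peak. Among the 12 best-ranked sites in all 4 DEX libraries it lay in the windows of Coro2b, Stip1, Map10 and Ets2, where capitals mark it here.
Coro2b, chr9:62560160-62560259: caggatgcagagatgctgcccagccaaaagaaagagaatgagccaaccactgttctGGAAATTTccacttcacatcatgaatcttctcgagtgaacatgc
Stip1, chr19:7040223-7040322: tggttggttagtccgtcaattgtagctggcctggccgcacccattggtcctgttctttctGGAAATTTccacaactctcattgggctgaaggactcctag
Map10, chr8:125639824-125639923: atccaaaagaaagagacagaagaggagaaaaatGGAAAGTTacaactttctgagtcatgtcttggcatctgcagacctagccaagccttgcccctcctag
Ets2, chr16:95814815-95814914: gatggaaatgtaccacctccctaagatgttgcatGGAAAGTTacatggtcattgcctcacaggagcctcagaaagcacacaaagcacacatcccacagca
In GR libraries of visual cortex astrocytes from P14 mice reared in normal light, the pattern lay under 3.09% and 1.94% of peaks in GR-KO and 2.20% and 2.15% in GR-Con, which received an astrocyte-directed virus with active or inactive Cre on a floxed GR background, and under 1.21%, 5.66% and 1.19% in WT. Per the paper's methods, the WT mice had also received the virus with inactive Cre. Each of these astrocyte libraries pooled several mice.

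Of the 24 genes with 6 or more 250K DEX sites within 50 kb, Irf2bp2 and Jun, with 6 sites each, were the only ones without a 50K DEX site, and they were singled out after their values were seen.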
